A study of Mus musculus with 8 samples.

Results

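The genes described here are 5 cyclins, the cyclin-dependent kinase Cdk1 and the inhibitor Cdkn1a. They were measured in T cells cultured with foreign splenocytes, with or without a block of costimulation. The 7 genes were taken from a probe set list that the authors deposited, which names 289 genes, and 10 probe sets carry one of the 7 symbols alone (Cdk1 under its older symbol Cdc2a). Ccna2, Ccnb1 and Cdkn1a each had 2 listed probe sets, which were averaged, and the other 4 genes had 1 each. Any probe set of these genes outside the list has no name here and is not in the averages. The fold values thus cover only probe sets that passed the selection, which can make them too large. Agreement between the listed probe sets of a gene is partly set by that selection. The list was selected on these same arrays for a difference with treatment, and the 7 genes were picked from it with that difference known. Their blockade differences are therefore given as a description and without p-values, and tests are given for comparisons between CD4 and CD8 cells.

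Cyclins are regulatory subunits that switch on cyclin-dependent kinases in a fixed order through the cell cycle. D cyclins act in G1 after mitogenic signals, E cyclins at entry into S phase, A cyclins in S phase and G2, and B cyclins with Cdk1 at entry into mitosis. A resting T cell has low levels of most of them and builds them up when antigen, costimulation and interleukin-2 drive it to divide. Cdkn1a encodes p21, which binds cyclin-Cdk complexes and restrains them. It is a classical target of p53 and is also induced by mitogens.

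RNA was hybridized to 8 Affymetrix Mouse430_2 arrays, 2 in each of 4 groups. Responders were splenocytes of C57BL/6 mice labelled with the dye CFSE, 200000 in a well, and stimulators were FVB/N splenocytes irradiated with 30 Gy, 800000 in a well. All groups were kept in this mixed culture for 5 days. The untreated CD4 and untreated CD8 groups had no antibody, and the CD4 and CD8 blockade groups received 50 µg each of anti-CD40L, CTLA4-Ig and anti-LFA-1, which block the CD40, CD28 and LFA-1 pathways of costimulation and adhesion. Ages were not used here. Cells positive for CFSE and for CD4 or CD8 were sorted, and no further gate on the dilution of the dye is given. The labels give 4 mice per group but do not tie an array to a mouse or a culture, so p-values cover the variation among arrays alone, part of which may be technical, and 2 arrays a group limit the precision.

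The deposited values are centred: each is a difference from the median of its probe set over the 8 arrays. They are read as log2, a base inferred and not stated; another base would scale every difference alike. Centring removes the signal level, so the amounts of 2 genes cannot be set against each other. Where 4 arrays are high and 4 low, it also places 0 midway between the innermost of them. None of the 9 T cell markers looked for, Cd4, Cd8a and Cd3e among them, is a named gene here, so the sort could not be checked by name. The array of CD8 blockade replicate 1 stood apart in its spike-in controls, with medians of 0.91 (hybridization) and 0.79 (poly-A), and CD4 untreated replicate 2 lay at -0.23 and -0.44.

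All 7 genes lay lower under blockade in both subsets. Averaged over the 4 blockade and 4 untreated arrays, Ccnb2 was 7.17-fold lower, Ccna2 4.90-fold, Cdkn1a 4.04-fold, Cdk1 3.93-fold, Ccnb1 2.51-fold, Ccne2 2.20-fold and Ccnd2 2.12-fold. The inhibitor thus lay lower together with the cyclins and not opposite to them. Differences in size between the genes were not tested. For each of the 7 genes the 4 blockade arrays lay below the 4 untreated arrays without overlap, as did 5.86% of all 44951 features (named genes and single probe sets), and 208 of the 289 named genes. In limma's fit over all arrays 5 of the 7 passed an adjusted p of 0.05 in CD4 cells, beside 2.02% of all features called lower, and 6 of the 7 in CD8 cells, beside 1.14%; nothing is read from these counts, since the list was selected on this contrast. The median difference over the 7 genes was -2.04 in CD4 and -1.73 in CD8 cells, against 0.01 and 0.02 over all features.

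**Figure D1:**
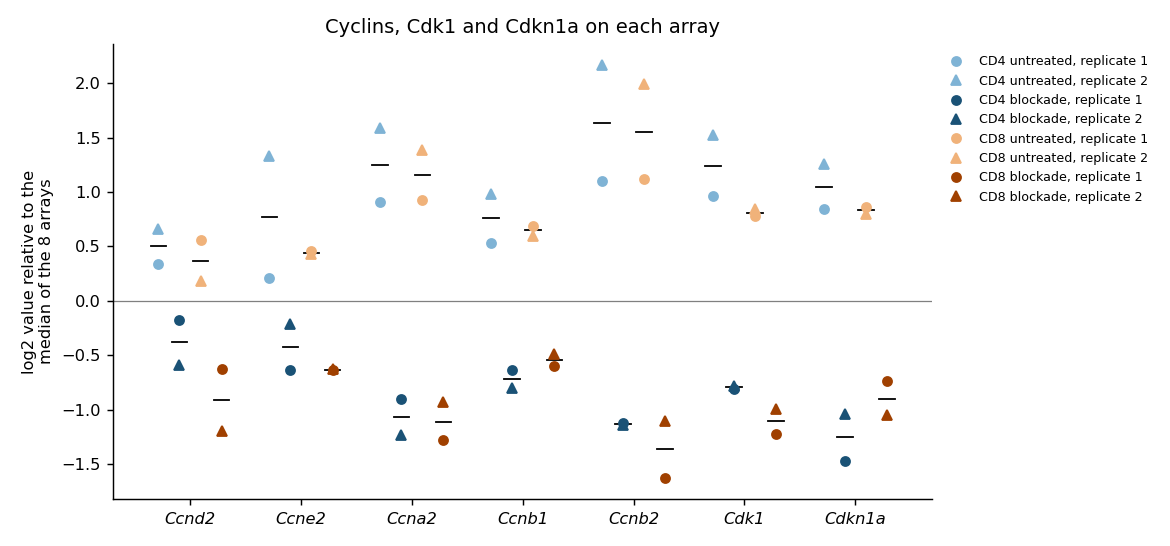
Centred log2 value (vertical axis) of each gene on each of the 8 arrays, by group; circles are replicate 1, triangles replicate 2 and black bars the mean of the 2. Every untreated array lies above 0 and every blockade array below it, with the widest gap for Ccnb2 (from -1.10 to 1.10) and the narrowest for Ccnd2 (from -0.18 to 0.18).

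Ccnd2 encodes cyclin D2, the D-type partner of Cdk4 and Cdk6. In CD4 cells its values were 0.34 and 0.66 on the untreated arrays and -0.18 and -0.59 on the blockade arrays. In CD8 cells they were 0.56 and 0.18, and -0.63 and -1.20. The lowest untreated array (CD8 replicate 2) and the highest blockade array (CD4 replicate 1) were 0.36 apart, the narrowest gap among the 7. The blockade difference was -0.88 ± 0.23 in CD4 cells and -1.28 ± 0.23 in CD8 cells (log2, ± SE of the fit). All differences below are given in the same way, with n = 2 and 2 arrays. In CD4 cells Ccnd2 was not in the count of passing genes above, from which nothing is read.

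Ccne2 encodes cyclin E2, which activates Cdk2 at the start of S phase. Its untreated CD4 arrays read 0.21 and 1.33, the widest spread of any group and gene here, and its blockade CD4 arrays -0.64 and -0.21. In CD8 cells the values were 0.46 and 0.43 untreated and -0.64 and -0.63 under blockade, so the replicates were nearly equal. The difference was -1.19 ± 0.31 in CD4 and -1.08 ± 0.31 in CD8 cells. Ccne2 was in neither count of passing genes above, from which nothing is read. The size of its difference in CD4 cells depended on which untreated array was kept: it was -0.63 without untreated replicate 2 and -1.76 without untreated replicate 1.

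Each of the 409 listed probe sets differed by at least 2-fold between the 4 blockade and 4 untreated arrays, the smallest by 1.00 on the log2 scale. The members' probe sets nearest to that limit were those of Ccnd2 (-1.08), one of the pair of Ccnb1 (-1.13) and that of Ccne2 (-1.14). Probe sets just outside the limit carry no gene name here.

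Ccna2 encodes cyclin A2, which partners Cdk2 and then Cdk1. Its untreated arrays read 0.91 and 1.59 in CD4 and 0.93 and 1.39 in CD8 cells. Its blockade arrays read -0.90 and -1.23 in CD4 and -1.28 and -0.93 in CD8 cells. The innermost untreated and blockade arrays were 1.81 apart. The difference was -2.32 ± 0.25 in CD4 and -2.27 ± 0.25 in CD8 cells. The 2 probe sets read alike in CD8 cells (-2.39 and -2.14) and in CD4 cells (-2.50 and -2.14).

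Ccnb1 and Ccnb2 encode the mitotic cyclins B1 and B2, and Cdk1 the kinase that both activate. Ccnb1 read 0.53 and 0.98 on the untreated CD4 arrays, 0.69 and 0.60 on the untreated CD8 arrays, -0.64 and -0.80 on the blockade CD4 arrays and -0.60 and -0.49 on the blockade CD8 arrays. Its replicates lay close together, with a within-group SD of 0.18 pooled over the 4 groups, the smallest of the 7. The difference was -1.47 ± 0.15 in CD4 and -1.19 ± 0.15 in CD8 cells. One of its probe sets is of a type (_s_at) that can bind related transcripts, and it read -1.70 in CD4 and -1.36 in CD8 cells, against -1.24 and -1.01 for the other. A further listed probe set is assigned to Ccnb1 and 2 predicted genes and was left out. It read -1.46 and -1.23.

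Ccnb2 had the largest difference of the 7 and also the largest within-group SD pooled over the 4 groups (0.52). It read 1.10 and 2.17 on the untreated CD4 arrays and 1.12 and 1.99 on the untreated CD8 arrays. Under blockade it read -1.12 and -1.14 in CD4 and -1.63 and -1.10 in CD8 cells. The replicates of each untreated group were thus 1.07 and 0.88 apart, while the innermost arrays of the treatments were 2.20 apart. The difference was -2.77 ± 0.37 in CD4 and -2.92 ± 0.37 in CD8 cells.

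Cdk1 read 0.96 and 1.52 on the untreated CD4 arrays and 0.78 and 0.84 on the untreated CD8 arrays. Under blockade it read -0.81 and -0.78 in CD4 and -1.22 and -0.99 in CD8 cells. The CD8 arrays lay below the CD4 arrays of the same treatment, a shift tested below. The blockade difference was -2.04 ± 0.17 in CD4 and -1.91 ± 0.17 in CD8 cells.

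**Figure D2:**
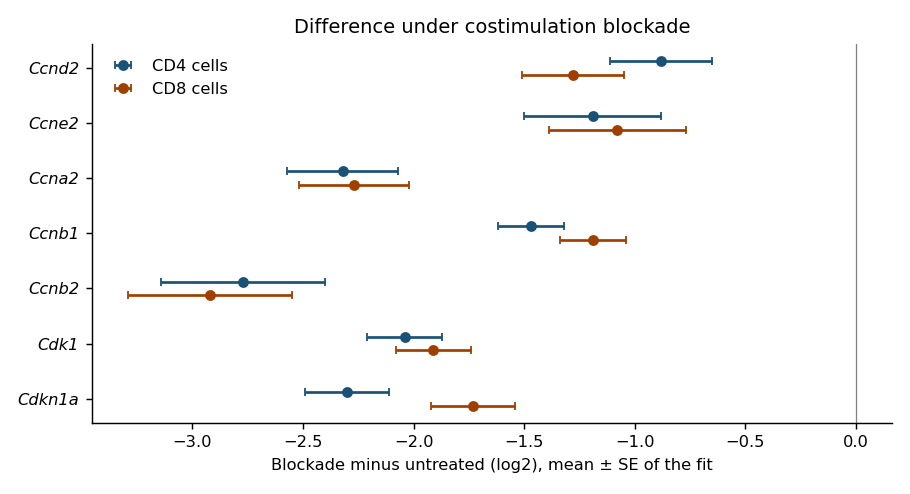
Blockade minus untreated difference (log2, horizontal axis) of each gene in CD4 cells (blue) and CD8 cells (brown); bars are ± 1 SE of the fit over 8 arrays. All differences are below 0, from -0.88 for Ccnd2 in CD4 cells to -2.92 for Ccnb2 in CD8 cells.

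The sequences just upstream of Ccnb1, Ccnb2 and Cdk1 are shown because cell cycle promoters of this class are known to carry CCAAT boxes, which bind NF-Y, and the CHR element, read by the DREAM and MuvB complexes. They are the 250 bases before the annotated start site, 5′ to 3′ on the strand of the gene, from RefSeq (GRCm38.p6), and entries were matched for 4 of the 7 genes. Capitals mark matches on either strand, and none overlapped another. The CCAAT box was searched by the letters of its name. The CHR element was searched in the form TTTGAA alone, so a window without a match may hold another form. One form of the E2F site, found in Cdk1, was searched as TTTCGCG. A further form of the E2F site, which none of these windows holds, was searched as TTTGGCG. The windows are chr13:100786487-100786736 (minus strand) for Ccnb1, chr9:70421555-70421804 (minus) for Ccnb2 and chr10:69352913-69353162 (minus) for Cdk1.
Ccnb1: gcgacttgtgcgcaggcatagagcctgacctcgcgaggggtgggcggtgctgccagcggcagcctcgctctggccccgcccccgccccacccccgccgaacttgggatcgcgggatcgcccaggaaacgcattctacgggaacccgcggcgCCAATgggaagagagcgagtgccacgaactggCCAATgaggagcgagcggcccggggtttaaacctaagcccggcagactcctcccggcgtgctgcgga
Ccnb2: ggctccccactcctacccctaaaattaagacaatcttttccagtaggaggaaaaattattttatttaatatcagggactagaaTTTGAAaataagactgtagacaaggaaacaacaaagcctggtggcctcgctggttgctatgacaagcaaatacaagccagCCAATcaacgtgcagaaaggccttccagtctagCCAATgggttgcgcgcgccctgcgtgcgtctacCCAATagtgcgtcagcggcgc
Cdk1: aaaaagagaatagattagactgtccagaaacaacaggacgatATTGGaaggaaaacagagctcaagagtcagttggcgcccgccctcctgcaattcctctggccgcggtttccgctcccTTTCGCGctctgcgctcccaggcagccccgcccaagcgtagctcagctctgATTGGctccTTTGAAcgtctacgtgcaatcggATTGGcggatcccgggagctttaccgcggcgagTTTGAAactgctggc
CCAAT stood 2 times in the window of Ccnb1, beginning 99 and 67 bases before the start site. It stood 3 times in that of Ccnb2, at 87, 54 and 21 bases, and 3 times in that of Cdk1, at 208, 80 and 48 bases and there on the other strand. TTTGAA stood at 167 bases in Ccnb2 and at 71 and 15 bases in Cdk1, and TTTCGCG at 131 bases in Cdk1. Of 32851 annotated windows of this length, 33.8% hold CCAAT, 16.0% TTTGAA, 0.703% TTTCGCG and 1.26% TTTGGCG. A match is a description of the letters and not of a bound site.

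Cdkn1a, the inhibitor, read 0.84 and 1.26 on the untreated CD4 arrays and 0.86 and 0.80 on the untreated CD8 arrays. Under blockade it read -1.47 and -1.04 in CD4 and -0.74 and -1.05 in CD8 cells. Treatments were 1.54 apart at their nearest arrays, about as far as for Cdk1 (1.56). The difference was -2.30 ± 0.19 in CD4 cells and -1.73 ± 0.19 in CD8 cells. Its probe sets read -2.18 and -2.43 in CD4 and, in the same order, -1.88 and -1.57 in CD8 cells. RefSeq places 2 start sites for the gene on the plus strand. The window before the upstream one, chr17:29090729-29090978, is shown because it holds matches to the p53 half-site (capitals), at 73 and 51 bases before the start site. The half-site was searched as RRRCWWGYYY (R is A or G, W is A or T, Y is C or T) after the sequences had been seen. Of all windows 7.13% hold a match, a share that does not measure chance for a window picked for its match.
Cdkn1a: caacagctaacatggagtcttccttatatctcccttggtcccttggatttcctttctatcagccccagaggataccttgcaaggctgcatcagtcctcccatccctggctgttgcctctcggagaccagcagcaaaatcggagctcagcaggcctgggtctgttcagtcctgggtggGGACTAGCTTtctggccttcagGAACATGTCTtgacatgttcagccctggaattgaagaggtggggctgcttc
The window before the other start site (chr17:29093519-29093768) held no match to any of the 5 motifs, and neither window of Cdkn1a held CCAAT or TTTGAA. The arrays do not tell which start site was in use, and none of the 17 p53 targets looked for beside Cdkn1a is a named gene here.

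**Figure D3:**
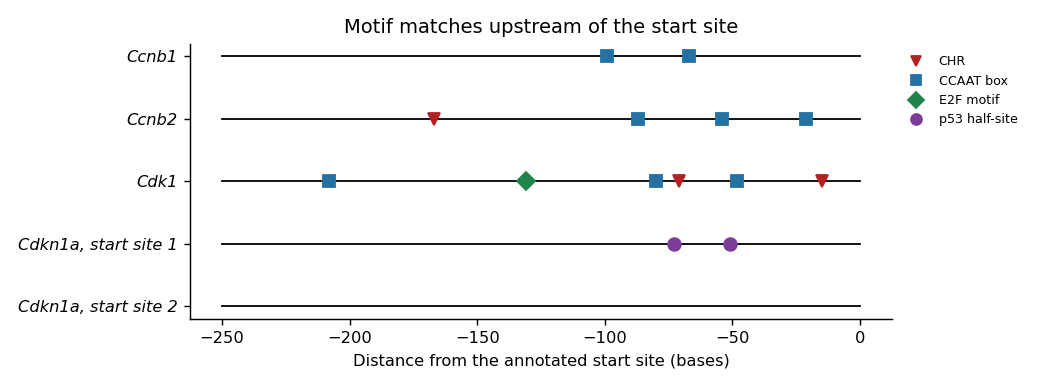
Motif matches in the 250 bases before each annotated start site (horizontal axis, bases from the start site at 0). Squares are CCAAT, triangles the CHR form TTTGAA, the diamond an E2F form and circles p53 half-sites. CCAAT boxes stand upstream of Ccnb1, Ccnb2 and Cdk1, and p53 half-sites upstream of the first start site of Cdkn1a.

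Whether blockade acted on these genes differently in CD4 and CD8 cells was tested with the difference of the blockade effects, CD8 minus CD4. The pooled treatment difference does not enter it. If the list's own test set all 4 blockade arrays against all 4 untreated ones, which its header leaves blank, a gap between subsets counted there as spread, so genes with a wide gap had less chance of being listed. None of the 7 passed (limma adjusted p of 0.98 to 1.00), beside 0.0578% of all features, and none had an unadjusted p under 0.05. Cdkn1a read 0.57 ± 0.26 (95% interval -0.03 to 1.18, limma adjusted p = 0.98). It was 0.36 without CD4 untreated replicate 2 or without CD4 blockade replicate 1, and 0.21 with quantile normalization. Without CD4 untreated replicate 1 or without CD4 blockade replicate 2 it was 0.79, and its sign held in all alternatives. The signs of Ccne2, Ccna2, Ccnb2 and Cdk1 turned when single arrays were left out, and no order among the 7 is read. Ccnd2 lay on the other side at -0.40 ± 0.32 (-1.13 to 0.33, adjusted p = 0.98), and the other 5 lay between -0.15 and 0.28. The intervals reached from -1.35 (Ccnb2) to 1.18 (Cdkn1a), so a difference of about 2-fold is inside several of them and these arrays do not show that the subsets responded alike.

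Levels in CD8 and CD4 cells of the same treatment were compared next. On untreated arrays all 7 genes had lower means in CD8 cells, by -0.08 (Ccnb2) to -0.43 (Cdk1), and none passed, beside 2.50% of all features (limma adjusted p of 0.37 to 0.98). That common direction rested on CD4 untreated replicate 2: without it the differences were 0.45 for Ccnb2, 0.25 for Ccna2, 0.24 for Ccne2, 0.11 for Ccnb1 and 0.03 for Ccnd2, and -0.01 for Cdkn1a and -0.16 for Cdk1. Quantile normalization also turned Ccnb2 (0.22), Ccna2 (0.21), Ccnb1 (0.08) and Cdkn1a (0.05). With all arrays Cdk1 was the only one of the 7 with an unadjusted p under 0.05 there (difference -0.43 ± 0.17, 95% interval -0.82 to -0.04, adjusted p = 0.37). It read -0.16 without CD4 untreated replicate 2 (limma adjusted p = 0.81), -0.71 without replicate 1 (0.063) and -0.11 with quantile normalization (0.78). Under blockade none passed either, beside 2.20% of all features (adjusted p of 0.40 to 0.97). Ccnd2 was lower in CD8 cells by 0.53 on the scale of the fit (difference -0.53 ± 0.23, -1.05 to -0.01, adjusted p = 0.40). That value ranged from -0.25 without CD8 blockade replicate 2 to -0.81 without CD8 blockade replicate 1, and was -0.33 without CD4 blockade replicate 1. Cdkn1a (0.35 ± 0.19) and Ccnb1 (0.17 ± 0.15) had the higher means in CD8 cells.

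Averaged over both treatments, the CD8 minus CD4 difference was -0.37 ± 0.12 for Cdk1 (95% interval -0.64 to -0.10, limma adjusted p = 0.16) and -0.33 ± 0.16 for Ccnd2 (-0.70 to 0.03, adjusted p = 0.38). The other 5 lay between -0.27 (Ccne2) and 0.06 (Cdkn1a). None of the 7 passed, beside 4.64% of all features, and Cdk1 alone had an unadjusted p under 0.05. Cdk1 passed when CD4 untreated replicate 1 was left out (-0.51, adjusted p = 0.025), and read -0.23 without CD4 untreated replicate 2 (adjusted p = 0.30) and -0.18 with quantile normalization (0.28). Its adjusted p ranged from 0.025 to 0.45 over 13 alternative settings. In all, 28 comparisons of a gene between subsets were made.

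**Figure D4:**
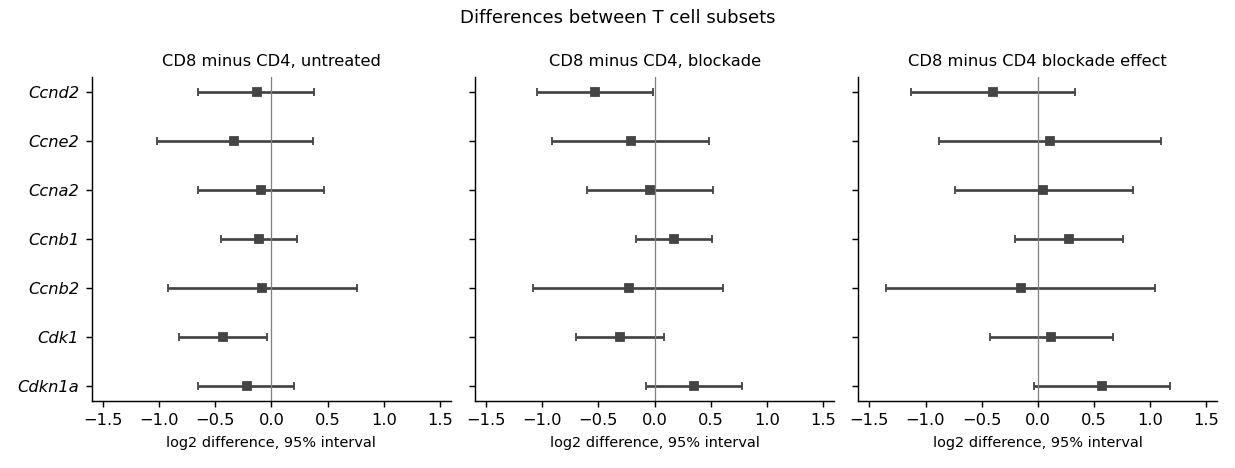
CD8 minus CD4 difference (log2, horizontal axis) of each gene on untreated arrays, on blockade arrays, and of the blockade effect; bars are 95% intervals. Intervals leave out 0 only for Cdk1 untreated (-0.82 to -0.04) and Ccnd2 under blockade (-1.05 to -0.01), and neither passed after adjustment.

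The array of CD4 untreated replicate 2 read higher than replicate 1 for all 7 genes, by 0.32 (Ccnd2) to 1.13 (Ccne2). The 201 other named genes that lay lower under blockade shifted the same way, with a median of 1.20 on that array and 0.84 on replicate 1. In the other groups replicate 2 was the higher one for 3 (untreated CD8), 3 (blockade CD4) and 4 (blockade CD8) of the 7. Without CD4 untreated replicate 2 the CD4 blockade difference was -2.23 for Ccnb2 and -0.63 for Ccne2, and all 7 kept their sign.

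Over the 8 arrays the 7 genes varied together, with a Pearson r of 0.840 to 0.995 over their 21 pairs, highest for Ccna2 with Ccnb2 and lowest for Ccnd2 with Ccne2. This is a description of arrays that share the treatment split by which the list was made. Cdk1 was most like Top2a (topoisomerase II alpha, r = 0.998), Mki67 (the Ki-67 antigen, 0.997) and Cdca5 (sororin, a cohesion factor, 0.996) among 282 other named genes. Ccna2 was most like Kif20a (0.996), a mitotic kinesin, then Pclaf, a PCNA-binding factor, and the checkpoint kinase gene Bub1 (both 0.995). Ccnb1 was most like Bub1 (0.992), Aurkb (aurora B kinase, 0.990) and Lrr1 (0.989), and Ccnb2 like D630039A03Rik, Birc5 (survivin) and Kif20a (all 0.993).

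Ccne2 was most like Kif2c (0.982), Ttk (0.966) and Ncapg (0.962), which encode a kinesin, a spindle checkpoint kinase and a condensin subunit. Ccnd2 was most like Fgl2 (fibrinogen-like protein 2, 0.990), Kif11 (0.960) and Chad (chondroadherin, 0.944). The 3 genes nearest to Cdkn1a were Psmb9 (an immunoproteasome subunit, 0.987), Parp9 and the guanylate-binding protein gene Gbp2b (both 0.985). For scale, the median r with the 201 other genes lower under blockade was 0.955 for Cdk1, 0.941 for Cdkn1a and 0.855 for Ccnd2, so much of the list varied almost as closely.

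Other genes of the same machinery were few in the list and all lay on the same side. From here on, fell and rose mean passing an adjusted p of 0.05 in limma. They are labels only: these genes have names through a list selected on treatment, so passing or not is not read as a result. Of all features, 2.02% passed as lower in CD4 cells and 1.14% in CD8 cells. Of 17 other cyclins, Cdks and Cks subunits, 3 are named, and all 3 fell in both subsets. Cdk6, the kinase partner of D cyclins, changed by -2.14 in CD4 and -1.56 in CD8 cells, and the Cdk1-binding subunits Cks2 and Cks1b by -1.34 and -1.28, and -1.19 and -1.22. Of 10 other Cdk inhibitors and pocket proteins only Cdkn3, a Cdk phosphatase, is named; it fell in CD4 cells (-1.43) and read -0.89 in CD8 cells without passing. Of 17 E2F and MuvB factors only E2f8, a repressor of E2F targets, is named, and it fell in both (-1.68 and -1.35). No Cdc25, Wee1 or Plk1 gene is named.

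Of 15 genes that control cyclin destruction, 4 are named and all 4 fell in both subsets. Ube2c, the ubiquitin-conjugating enzyme of the anaphase-promoting complex, changed by -2.33 and -2.17, and the spindle checkpoint genes Ttk and Bub1b by -1.52 and -1.19, and -1.43 and -1.26. Of 34 mitosis genes 16 are named, of which 15 fell in CD4 and 14 in CD8 cells (medians -1.84 and -1.71). Birc5 changed by -2.66 and -2.78, Nusap1, a spindle protein, by -2.19 and -1.99, and Cep55, which acts in abscission, by -2.03 and -2.05. Of 28 DNA replication genes 5 are named, and 4 fell in CD4 and 3 in CD8 cells (medians -2.12 and -1.81). Those that fell in both are Rrm2, a ribonucleotide reductase subunit (-2.15 and -2.39), Uhrf1, which maintains DNA methylation (-2.21 and -1.95), and Cdc6, an origin licensing factor (-2.12 and -1.81). Chek1, the checkpoint kinase that restrains Cdk1, read -1.41 and -1.50 without passing in either. None of these 30 genes passed in a comparison between subsets, beside 0.0578% to 4.64% of all features over those comparisons. At such shares few or no genes of 30 would be called, so nothing is read from this. As the list was selected on treatment, the counts of genes that fell are a description and not independent evidence of a direction or a difference.

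Named markers of other cell types moved with treatment on the same arrays. A marker has a name here only through the list selected on treatment, so these counts are a description and nothing is read from them against the shares of all features called (1.39% higher and 2.02% lower in CD4, 0.785% and 1.14% in CD8 cells). All 10 named of 16 B cell markers rose in both subsets. One of them, Cd72, was also higher in CD8 than in CD4 cells, by 0.73 ± 0.11 on untreated arrays (limma adjusted p = 0.010) and by 0.48 ± 0.08 averaged over treatments (0.0096). Their mean per array was 0.81 to 0.89 on blockade and -0.89 to -0.79 on untreated CD4 arrays, and 0.72 to 0.79 and -0.89 to -0.75 on CD8 arrays. Of 8 named of 11 neutrophil markers, 7 fell in CD4 and 6 in CD8 cells, with means per array of -1.33 to -1.27 and 1.24 to 1.75 in CD4, and of -1.61 to -1.05 and 1.09 to 1.63 in CD8 cells. Of 4 named of 7 mast cell and basophil markers, 4 fell in CD4 and 3 in CD8 cells. Of 3 named of 9 macrophage and dendritic cell markers, 3 rose in CD4 and 2 in CD8 cells. The named markers not counted lay on the same side as the rest of their list without passing. They were Lcn2 in both subsets, and Ltf, Ms4a2 and Fabp4 in CD8 cells. No red cell marker has a name of its own here. Centred values do not show whether a marker was absent, the part of these cells in the differences of the 7 genes was not tested, and fewer dividing cells in a sample and less RNA of these genes per cell cannot be told apart.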

How the data were processed

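The deposited table holds 45101 probe sets on 8 arrays as log2 values that the authors had normalized and centred by probe set; no source used here states the log base, the summary method or the normalization. A second deposited file lists 409 probe sets with equal log2 values and gene symbols, which the authors chose with an unpaired test and a corrected p cutoff of 0.05, per the file headers. Symbols were updated by Entrez identifier through RefSeq (GRCm38.p6). The 64 control probe sets were left out, a named gene's listed probe sets were averaged (44951 features), and limma 3.58.1 (R 4.3.3) was fitted with a mean per group, eBayes and Benjamini-Hochberg adjustment over all features, two-sided, at 0.05 (4 residual and 4.48 prior degrees of freedom). The fit was tested on simulated data. Groups came from the sample titles. Genes and lists were chosen with earlier results of these data known. Named beside the 7 genes were at most 5 genes of a list, those with the largest mean blockade difference, and the 3 most like each member by Pearson r. The alternatives were single probe sets, quantile normalization, array weights, the replicate number as a block, arrays left out and fits of 4 arrays. The p53 half-site was searched after the sequences had been seen, and the other motifs are textbook forms.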

Additional observations from a re-analysis of the deposited data

How the results depend on the processing

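The 7 genes kept a negative blockade difference in both subsets under all alternatives run, and 0 of 7 passed in every comparison between subsets by limma, except that Cdk1 passed in the average over treatments without CD4 untreated replicate 1 (0 to 1 of 7 over the arrays left out). The direction of the small subset differences was less steady, and 55 values for a gene changed sign, all in these comparisons and none past the threshold. Over the fits that left out 1 array, or both with unusual spike-ins, CD8 minus CD4 untreated ran from -0.32 to 0.06 for Ccnd2, -0.89 to 0.24 for Ccne2, -0.43 to 0.25 for Ccna2, -0.33 to 0.11 for Ccnb1 and -0.61 to 0.45 for Ccnb2. Under blockade it ran from -0.43 to 0.00 for Ccne2, -0.21 to 0.13 for Ccna2 and -0.49 to 0.03 for Ccnb2. Averaged over treatments it ran from -0.55 to 0.01 for Ccne2, -0.23 to 0.19 for Ccna2, -0.08 to 0.17 for Ccnb1, -0.42 to 0.24 for Ccnb2 and -0.04 to 0.17 for Cdkn1a. The difference of effects ran from -0.45 to 0.68 for Ccne2, -0.29 to 0.39 for Ccna2, -0.69 to 0.38 for Ccnb2 and -0.15 to 0.40 for Cdk1. Quantile normalization gave -0.06 for Ccne2, -0.27 for Ccna2 and -0.14 for Cdk1 in the difference of effects, 0.21 for Ccna2, 0.22 for Ccnb2, 0.08 for Ccnb1 and 0.05 for Cdkn1a untreated, and 0.08 for Ccna2 averaged. Leaving out 1 array gave 666 to 1413 called features for blockade in CD4 cells (1529 with all), 411 to 773 in CD8 cells (867), 5 to 26 for their difference (26), 551 to 1070 for CD8 minus CD4 untreated (1123), 505 to 884 under blockade (990) and 1383 to 1849 averaged (2085). Without both arrays with unusual spike-ins these counts were 531, 275, 0 (2113 at an unadjusted p under 0.05), 460, 392 and 954. CD8 arrays alone gave 453 for blockade, blockade arrays alone 628 for CD8 minus CD4, and quantile normalization 16 for the difference of effects. Of the 7 genes, 5 to 6 passed for blockade in CD4 and 4 to 7 in CD8 cells with 1 array left out, and 4 and 5 without both of those arrays. Fewer arrays leave fewer degrees of freedom; the cause under quantile normalization was not tested. Correlations of replicate deviations between groups, over all features, ran from -0.03 to 0.08. They cannot exclude a pairing of arrays by replicate number that touches few genes. The fit with the replicate block gave 1389 and 803 calls for blockade in CD4 and CD8 cells, with 5 and 6 of the 7 genes called as without it. In that fit the SE of the CD4 blockade difference went from 0.37 to 0.23 for Ccnb2 and stayed at 0.19 for Cdkn1a. With quantile normalization the CD4 difference was -1.90 for Ccna2, -1.27 for Ccnb1, -1.67 for Cdk1 and -1.86 for Cdkn1a. Signal over background could not be assessed from centred values.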
